A study of Homo sapiens with 8 samples.

Results

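The BCL2 family decides whether a cell releases cytochrome c from its mitochondria and dies by apoptosis. Pro-survival members hold the effectors BAX and BAK1 in check, and BH3-only members bind the pro-survival proteins, or the effectors themselves, through a short helix called the BH3 domain. Amino acid starvation can activate the kinase GCN2, phosphorylation of eIF2 and the transcription factors ATF4 and CHOP, to an extent that depends on the amino acid and the cells, and several BH3-only genes and the death receptor gene TNFRSF10B are known targets of these factors or of p53.

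Ribosome profiling values were examined for 10 genes chosen by symbol, of 12235 genes listed in any of 8 libraries. They comprised 3 pro-survival genes (MCL1, BCL2 and BCL2L1, which encodes BCL-XL) and 7 pro-death genes. The pro-death genes were the effectors BAX and BAK1, the BH3-only genes BID, BAD, BBC3 (PUMA) and PMAIP1 (NOXA), and TNFRSF10B, which encodes the TRAIL receptor DR5 and is not itself a BCL2 family gene. The choice used the symbols and no threshold on a measured value.

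All libraries came from wild-type HEK293T cells, a human embryonic kidney line immortalized with SV40 Large T antigen, which binds and inactivates p53. According to the labels, cells were starved overnight in medium without arginine (Arg-), leucine (Leu-) or methionine (Met-), and the control medium had all amino acids added back (Suff), all of them with dialyzed serum. Each medium was profiled once with cycloheximide, a drug that stops elongating ribosomes, given to the cells before lysis, and once without this pre-treatment. There was thus 1 library per condition, no replicate of any value and no test, and all 3 starvations of a series were set against the same Suff library.

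Values are RPKM, the footprint reads on a coding sequence per kilobase, scaled to the reads of the library, for the highest transcript of each gene. A footprint density reflects the amount of an mRNA and the ribosomes on each copy, which cannot be told apart here, and being a share of a library it does not show a change in the total number of ribosomes. The intervals given below are exact 95% intervals from the recovered read counts. They cover counting error only, and reads without molecular identifiers are not independent molecules, so an interval that leaves out 1 is not a test between media.

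The RPKM values corresponded to 538222 to 6434044 reads per library with cycloheximide and 1302521 to 3139745 without. The fewest reads of any listed transcript were 64 with cycloheximide and 5 without, so that 2021 genes were listed for Met- with cycloheximide against 8906 for Leu-, and 10871 to 11437 genes in each library without the drug. The series also differed in the transcript chosen for some genes and, judging by file names alone, in the removal of duplicate reads, and the drug and these steps cannot be told apart. Of the 7 HEK293 markers, VIM and NEFM were listed in all 8 libraries, between 2 and 7 were listed in each, and their summed RPKM ranged from 206.8 to 825.8. Of 8 markers of other cell types, PTPRC, CD3E, ALB, PECAM1, CDH5 and EPCAM were listed in none, COL1A1 in 5 libraries at 1.59 to 20.2 RPKM and COL3A1 in 1 library at 0.434 RPKM.

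The feature that unites the 9 family members, and that the choice by symbol did not use, is the BH3 segment. It is shown here because BBC3 and PMAIP1, the members with the highest ratios without cycloheximide in each starvation, bind the pro-survival members through it. Each line gives 30 bases of the GRCh38 coding strand, 5′ to 3′, with the 6-codon core in capitals: a leucine codon, any 3 codons, a glycine, alanine or serine codon, and an aspartate codon.
MCL1: gagaccTTACGACGGGTTGGGGATggcgtg
BCL2: ctgaccCTCCGCCAGGCCGGCGACgacttc
BCL2L1: caagcgCTGAGGGAGGCAGGCGACgagttt
BAX: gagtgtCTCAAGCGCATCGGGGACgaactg
BAK1: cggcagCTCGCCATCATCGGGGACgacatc
BID: aggcacCTCGCCCAGGTCGGGGACagcatg
BAD: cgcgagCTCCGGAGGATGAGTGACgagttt
BBC3: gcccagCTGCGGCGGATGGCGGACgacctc
PMAIP1: actcaaCTCAGGAGATTTGGAGACaaactg

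All 9 lie inside coding exons. They are chr1:150578871-150578900 on the minus strand in exon 1 of MCL1, chr18:63318355-63318384 minus in exon 1 of BCL2, chr20:31721928-31721957 minus in exon 2 of BCL2L1, chr19:48955781-48955810 plus in exon 3 of BAX, and chr6:33575393-33575422 minus in exon 4 of BAK1. The BH3-only segments are chr22:17739421-17739450 minus in exon 4 of BID, chr11:64271628-64271657 minus in exon 2 of BAD, chr19:47226585-47226614 minus in exon 3 of BBC3, and chr18:59902667-59902696 plus in exon 2 of PMAIP1. Translated, the cores of MCL1 and PMAIP1, of BCL2 and BCL2L1, and of BAD and BBC3 were identical at 5 of 6 positions, and the least alike pairs, such as BAK1 and BAD, at 2 of 6. MCL1, BAD, BBC3 and PMAIP1 carried arginine codons at both the second and the third position of the core. The pattern itself is loose and was found in 38.3% of 11064 coding sequences of the listed genes, so that it does not identify a BH3 domain by itself. BID held a second match at codons 71 to 76, outside the segment printed above, which is at codons 136 to 141 of the listed transcript. TNFRSF10B, which is not of the family, held 1 match too. The transcript BBC3-204, described below, held 1 at codons 251 to 256, outside the PUMA frame.

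The transcript behind a value mattered for BBC3 and PMAIP1. With cycloheximide the listed transcripts were BBC3-203 and PMAIP1-202, which encode the PUMA and NOXA proteins carrying the segments above. Without cycloheximide they were BBC3-204, with 783 coding nucleotides against 579, and PMAIP1-201, with 408 against 162. The longer coding region of PMAIP1-201 contains all 162 nucleotides of the shorter one but only 58 of them in the same frame, and that of BBC3-204 contains all 579 with none in the same frame. Reads from the PUMA and NOXA frames therefore counted in both series but were divided by different lengths, and the isoform or frame they came from is uncertain. Levels of BBC3, PMAIP1 and BAK1 (BAK1-202 with cycloheximide, BAK1-201 without) were for this reason not compared between the series, whereas ratios within a series used the same transcript.

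**Figure D1:**
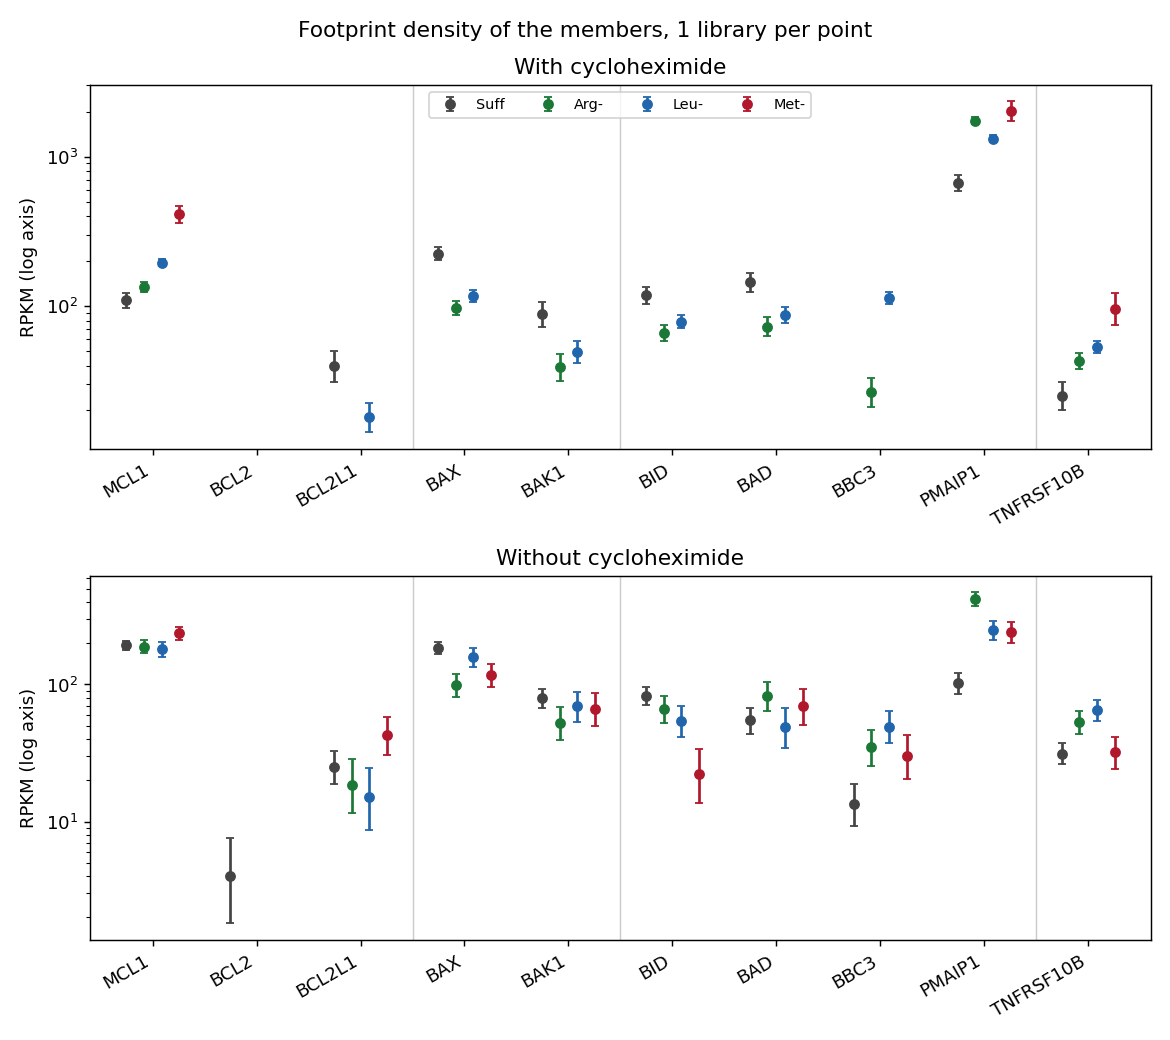
Footprint density (RPKM, log axis) of the 10 genes in each library, with cycloheximide above and without below; points are single libraries coloured by medium, bars are exact Poisson 95% counting intervals, and a missing point is a gene not listed. PMAIP1 and BBC3 lie above their Suff points wherever the starved library and Suff both list them, and BAX lies below its Suff point in the 5 starved libraries that list it. In Met- with cycloheximide PMAIP1 could be listed only above its Suff value.

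MCL1, the short-lived pro-survival protein that NOXA binds, had nearly the same density in 3 of the 4 libraries without cycloheximide. It was at 193.3 RPKM in Suff, 188.7 in Arg-, 180.2 in Leu- and 235.5 in Met-. Met- was the highest and its 1.22-fold ratio to Suff (95% interval 1.06 to 1.40) was the only step between neighbouring libraries larger than counting error. On the log2((RPKM + 1)/(RPKM in Suff + 1)) scale used for all log2 ratios below, the Met- ratio was 0.28 and the median of all genes compared was 0.32, so that 48.3% of genes lay below MCL1. With cycloheximide MCL1 stood at 109.0 RPKM in Suff, 134.4 in Arg-, 194.4 in Leu- and 410.5 in Met-. All steps of that order were larger than counting error, and the ratios to Suff were 1.23 (1.07 to 1.42), 1.78 (1.57 to 2.03) and 3.77 (3.16 to 4.49).

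The Met- library with cycloheximide needs a caution that holds for every gene in it. A transcript entered its list only with 64 or more reads, which for MCL1 is 113.2 RPKM and for PMAIP1 734.0 RPKM, each already above the Suff value. TNFRSF10B had to reach 90.1 RPKM, 3.58-fold its Suff value, to be listed at all. The 3 members listed there, MCL1, PMAIP1 and TNFRSF10B, could therefore appear only as higher than in Suff, and their number carries no information on direction. The median log2 ratio of the 1890 genes compared in this pair was 0.89, and relative to it MCL1 lay 1.01 higher, TNFRSF10B 0.998 higher and PMAIP1 0.71 higher. Subtracting this median does not remove the limit of a single gene. For TNFRSF10B the 3.58-fold level needed for listing was by itself above the median.

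The other pro-survival genes had low densities. BCL2 was listed in 1 library, Suff without cycloheximide, at 3.98 RPKM from 9 reads, and the level that the fewest listed reads would give it in the starved libraries was above that, so no ratio can be given. BCL2L1 without cycloheximide was at 24.95 RPKM in Suff, 18.6 in Arg-, 15.2 in Leu- and 42.7 in Met-. Met- was the highest, 1.71-fold Suff (1.10 to 2.62) and 2.80-fold Leu- (1.53 to 5.37), while Suff, Arg- and Leu- did not differ from their neighbours beyond counting error. The log2 ratio in Met- was 0.75, with an interval of 0.12 to 1.37 that held the median of all genes compared, 0.32. Of these genes 70.2% lay below BCL2L1. With cycloheximide BCL2L1 was at 39.7 RPKM in Suff and 18.01 in Leu-, 2.20-fold lower (1.58 to 3.07), and was not listed in Arg-, where it was at least 2.17-fold lower than in Suff if every transcript with 64 reads was listed. It was not listed in Met- either, where only a level above 170.1 RPKM would have been.

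BAX, the effector that moves from the cytosol to the mitochondrial membrane, was lower in starved than in sufficient medium in every library that listed it, though not always beyond counting error. Without cycloheximide it was at 184.2 RPKM in Suff, 99.2 in Arg-, 158.6 in Leu- and 116.9 in Met-. The ratios were 0.539 in Arg- (0.430 to 0.670) and 0.634 in Met- (0.504 to 0.793), and the Leu- interval, 0.710 to 1.04 around 0.861, included 1. In Arg- 8.40% and in Met- 11.5% of genes compared had a lower log2 ratio than BAX. With cycloheximide BAX was at 224.6 RPKM in Suff, 97.4 in Arg- and 116.7 in Leu-, 2.31-fold (1.98 to 2.69) and 1.92-fold (1.68 to 2.21) lower, and it was not listed in Met-, at least 1.24-fold lower under the same condition on listing.

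BAK1, the effector that resides on mitochondria, followed the same order of media. Without cycloheximide it was at 79.1 RPKM in Suff, 52.7 in Arg-, 69.3 in Leu- and 66.4 in Met-, and no neighbours in that order differed beyond counting error. Its ratio in Arg- was 0.666 (0.480 to 0.913) and those in Leu- and Met- had intervals that included 1. With cycloheximide it was at 88.5 RPKM in Suff, 39.1 in Arg- and 49.4 in Leu-, ratios of 0.442 (0.330 to 0.592) and 0.559 (0.431 to 0.725).

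BID, a BH3-only protein activated by caspase cleavage, had the lowest ratio of any member in methionine-deficient medium without cycloheximide. It was at 82.5 RPKM in Suff from 188 reads, 65.8 in Arg-, 54.3 in Leu- and 22.2 in Met- from 21 reads. Met- was 3.71-fold lower than Suff (2.36 to 6.14), and 0.533% of the 7884 genes compared had a lower log2 ratio than its -1.85. Met- was also 2.44-fold lower than Leu- (1.46 to 4.24) and 2.97-fold lower than Arg- (1.81 to 5.06). The Leu- ratio to Suff was 0.658 (0.483 to 0.886) and the Arg- interval, 0.604 to 1.046, included 1. With cycloheximide BID was at 117.8 RPKM in Suff, 66.3 in Arg- and 78.7 in Leu-, again lower in both. Its Met- value there is unknown, because only a level above 164.5 RPKM would have been listed.

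BAD, a BH3-only protein held inactive by phosphorylation, was in Arg- the only member whose ratios lay on opposite sides of 1 in the series with both intervals leaving out 1. Without cycloheximide it was at 54.7 RPKM in Suff, 82.0 in Arg-, 48.8 in Leu- and 69.7 in Met-. Arg- was 1.501-fold Suff (1.08 to 2.09) from 67 against 87 reads, and no neighbours in the order of the 4 media differed beyond counting error. With cycloheximide BAD was at 144.9 RPKM in Suff, 72.9 in Arg- and 87.3 in Leu-, where Arg- was 0.503-fold Suff (0.408 to 0.620) and Leu- 0.602-fold (0.499 to 0.728).

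BBC3, whose product PUMA binds all pro-survival members, had the lowest density of the BH3-only genes in sufficient medium without cycloheximide and was higher in each starvation of that series. Without cycloheximide it was at 13.4 RPKM in Suff (33 reads), 34.8 in Arg- (44 reads), 49.3 in Leu- (58 reads) and 30.3 in Met- (31 reads). The ratios were 2.60 in Arg- (1.62 to 4.21), 3.69 in Leu- (2.36 to 5.84) and 2.26 in Met- (1.34 to 3.81), and 96.4%, 99.2% and 84.0% of genes compared had lower log2 ratios. Leu- was 1.63-fold Met- (1.04 to 2.60), while Leu- and Arg- did not differ beyond counting error. With cycloheximide BBC3 was not listed in Suff or Met-, and was at 26.5 RPKM in Arg- and 113.0 in Leu-. Leu- was 4.26-fold Arg- (3.33 to 5.502) and at least 2.62-fold higher than Suff, where 43.2 RPKM was the lowest level that would have been listed.

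PMAIP1, whose product NOXA binds MCL1 preferentially, was higher than in Suff in all 6 starved libraries. In Met- with cycloheximide no other direction was possible, because a listed value had to exceed the Suff value. Without cycloheximide it was at 102.3 RPKM in Suff (132 reads), 418.4 in Arg- (277 reads), 248.7 in Leu- (153 reads) and 241.0 in Met- (129 reads). The ratio in Arg-, 4.09 (3.31 to 5.07), exceeded those in Leu-, 2.43 (1.91 to 3.09), and Met-, 2.36 (1.83 to 3.03), and Arg- was 1.68-fold Leu- (1.38 to 2.06). Leu- and Met- did not differ beyond counting error, with a ratio of Met- to Leu- of 0.969 (0.761 to 1.23). In Arg- 99.3%, in Leu- 96.9% and in Met- 87.0% of genes compared had a lower log2 ratio. With cycloheximide PMAIP1 was at 665.4 RPKM in Suff, 1742 in Arg-, 1317 in Leu- and 2019 in Met-, ratios of 2.62 (2.30 to 2.99), 1.98 (1.74 to 2.26) and 3.03 (2.496 to 3.68). In that series 89.9%, 87.6% and 70.7% of genes compared had a lower log2 ratio.

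TNFRSF10B, the receptor that passes the TRAIL signal to caspase-8 from outside the BCL2 family, was higher in Arg- and Leu- in both series. Without cycloheximide it was at 31.3 RPKM in Suff, 53.03 in Arg-, 64.6 in Leu- and 31.9 in Met-. The ratios were 1.69 in Arg- (1.31 to 2.20) and 2.07 in Leu- (1.61 to 2.66), whereas Met- stood at 1.02 (0.730 to 1.41) and was 2.03-fold lower than Leu- (1.47 to 2.83). With cycloheximide it was at 25.2 RPKM in Suff, 42.9 in Arg-, 53.1 in Leu- and 95.7 in Met-, the last from 68 reads and subject to the listing limit above. The Arg- and Leu- ratios there were 1.71 (1.34 to 2.20) and 2.11 (1.67 to 2.69).

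**Figure D2:**
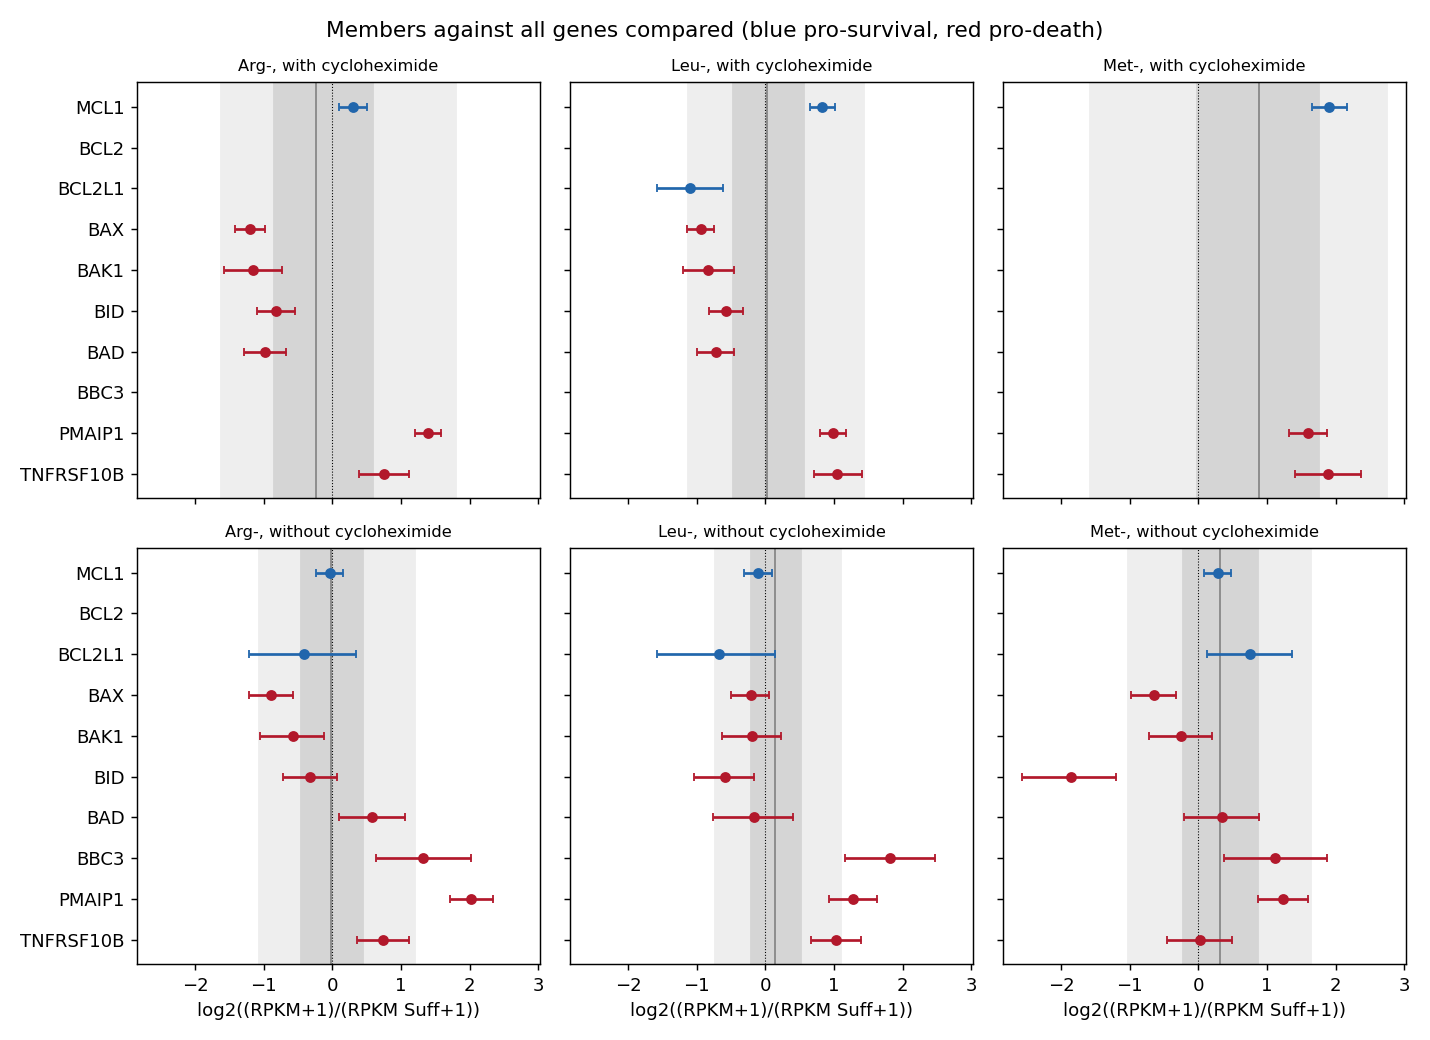
Log2 ratio of each starved library to Suff, as log2((RPKM + 1)/(RPKM Suff + 1)), for the members listed in both libraries; blue points are pro-survival and red pro-death genes, bars are exact 95% counting intervals, the grey line is the median of all genes compared, and dark and light grey bands hold the middle 50% and 90% of them. Without cycloheximide PMAIP1 and BBC3 lie right of the light band in Arg- and Leu- and inside it in Met-, where BID lies left of it.

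Counts past a 2-fold limit were taken over members listed in both libraries of a pair with a mean RPKM of at least 10, and no member listed in both libraries was lost to that minimum. Without cycloheximide 9 members entered each comparison. In Arg- 2 members, BBC3 and PMAIP1, were at least 2-fold higher against 8.23% of all genes, and none was 2-fold lower against 5.95%. In Leu- 3 members, BBC3, PMAIP1 and TNFRSF10B, were at least 2-fold higher against 6.85% of genes, and none was lower against 2.06%. In Met- 2 members, again BBC3 and PMAIP1, were higher against 20.2% of genes, a share near the background for 9 members, and BID was lower against 5.34%.

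With cycloheximide the counts rested on fewer members. In Arg- PMAIP1 of 7 members was at least 2-fold higher against 16.6% of all genes, and BAX and BAK1 were at least 2-fold lower against 19.7%. In Leu- TNFRSF10B of 8 members was higher against 12.1% of genes and BCL2L1 lower against 7.28%. Over 7 and 8 members these counts lay near the shares of all genes and are not read as a trait of the members. In Met- all 3 listed members were higher against 46.7% of genes and none lower against 9.79%, which follows from the listing limit described above. The side of 1 on which a ratio lay was the same in both series for 5 of 7 members in Arg-, where BAD and MCL1 differed, and 7 of 8 in Leu-, where MCL1 differed. The MCL1 ratios without the drug, 0.976 in Arg- (0.851 to 1.12) and 0.932 in Leu- (0.808 to 1.07), had intervals that included 1. Directions in Met- were not compared between the series, since those with cycloheximide were fixed by the listing limit.

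The medians of pro-death and pro-survival genes had no stable order. Without cycloheximide the median log2 ratio of the 7 pro-death genes was 0.58 in Arg-, -0.16 in Leu- and 0.03 in Met-, against -0.22, -0.39 and 0.52 for MCL1 and BCL2L1. All genes compared had medians of -0.02, 0.14 and 0.32. With cycloheximide the pro-death medians were -0.90 in Arg- and -0.65 in Leu- over 6 genes, against 0.30 for MCL1 alone in Arg- and -0.13 for MCL1 and BCL2L1 in Leu-, and in Met- the difference of -0.16 rested on 2 pro-death genes and MCL1. At a minimum mean of 50 RPKM the difference, pro-death minus pro-survival, turned without the drug from 0.80 to -0.29 in Arg- and from 0.23 to -0.09 in Leu-, and with unlisted genes at 0 it turned with the drug from -1.20 to 1.70 in Arg-. As point values the pro-death genes were divided among themselves, with BBC3, PMAIP1 and TNFRSF10B above 1 and BAX, BAK1 and BID below 1 in Arg- and Leu- without the drug, where BAD was above 1 in Arg- and below it in Leu-.

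A ratio to MCL1 within a library does not depend on the scaling of that library. Without cycloheximide PMAIP1 density was 0.529 of MCL1 density in Suff (0.435 to 0.639), 2.22 in Arg- (1.88 to 2.61), 1.38 in Leu- (1.13 to 1.69) and 1.02 in Met- (0.828 to 1.26). The ratio was highest in Arg- and lowest in Suff, but its place above or below 1 depends on the coding length of the uncertain PMAIP1 transcript and is not read as an order of the 2 genes. BBC3 stood at 0.0692 of MCL1 in Suff, 0.184 in Arg-, 0.274 in Leu- and 0.129 in Met-. BAX was at 0.953 of MCL1 in Suff and 0.880 in Leu- but 0.526 in Arg- and 0.496 in Met-. The BAX ratio in Leu- was near that of Suff in this series only. In the series with the drug BAX was at 2.06 of MCL1 in Suff, 0.724 in Arg- and 0.6004 in Leu-, the lowest of these, and was not listed in Met-. With cycloheximide PMAIP1, measured on its shorter transcript, was 6.11-fold MCL1 in Suff (5.16 to 7.22) and 13.0-fold in Arg- (11.8 to 14.2). It was 6.78-fold in Leu- (6.28 to 7.32) and 4.92-fold in Met- (4.02 to 6.01), and both of these intervals overlapped that of Suff.

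**Figure D3:**
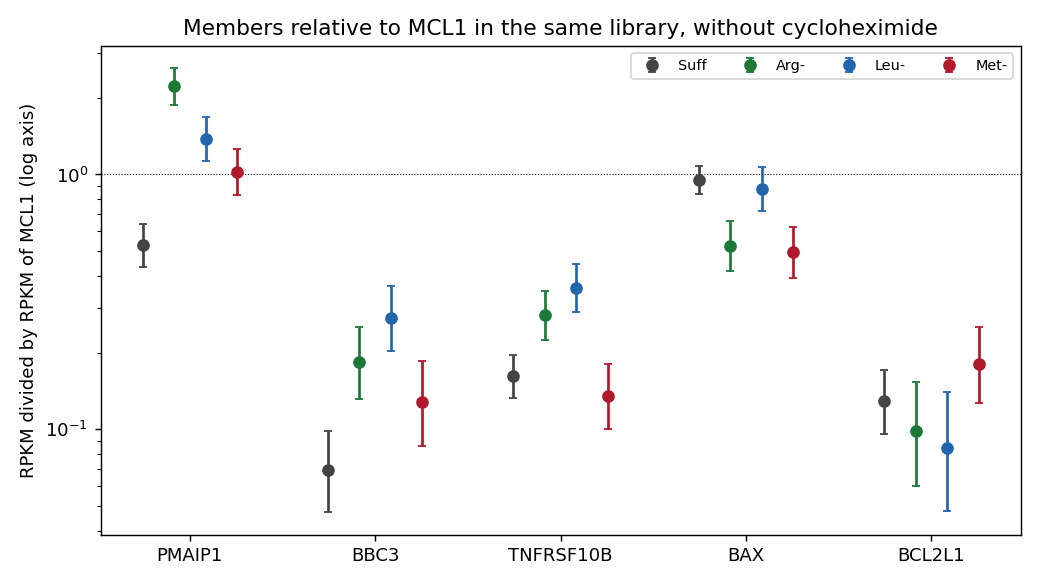
RPKM of 5 members divided by the RPKM of MCL1 in the same library without cycloheximide (log axis); points are single libraries coloured by medium, bars are exact 95% counting intervals and the dotted line marks equal RPKM, which for PMAIP1 and BBC3 depends on the transcript length used. PMAIP1 goes from 0.529 in Suff to 2.22 in Arg-, and BAX from 0.953 to 0.526.

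The starved amino acids are not equally frequent in the members. Over 11064 coding sequences of listed genes the median share of codons was 9.76% for leucine, 2.13% for methionine and 5.63% for arginine. BID, which had the lowest Met- ratio, had 3.32% methionine codons, more than 88.0% of coding sequences, and 10.4% arginine codons. PMAIP1, in its 54-codon form, had 1 methionine codon and 9.26% arginine codons, more than 93.3% of coding sequences. BBC3, in its 193-codon form BBC3-203, had 11.4% arginine and 2.07% methionine codons. Both are the forms listed with cycloheximide, whereas the ratios without it came from PMAIP1-201 and BBC3-204. BAD had 4.17% leucine codons, a share that 1.39% of coding sequences went below, and MCL1 was near the medians for leucine at 10.0% and methionine at 1.71% with 8.0% arginine. The link between these shares and the ratios was not tested.

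Genes whose 3 log2 ratios without cycloheximide were closest to those of a member were found by Euclidean distance among 6659 genes with at least 10 RPKM in all 4 libraries. For MCL1 they were FOXM1 (distance 0.0174), DGCR2 (0.0621) and TMEM160 (0.0803). For BBC3 they were PSAT1 (0.1002), KIF2C (0.124) and PPIL4 (0.152), and for PMAIP1 COPB1 (0.146), GGNBP2 (0.255) and GFPT1 (0.327). For TNFRSF10B they were CEP57 (0.109), WDR76 (0.143) and TSPYL2 (0.146).

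Wider lists place the members among genes of the same pathways, here without cycloheximide and in the order Arg-, Leu-, Met-. The ATF4 and CHOP axis, transcription factors and targets of the eIF2 kinase response, was at least 2-fold higher in 8 of 8, 8 of 8 and 9 of 9 genes compared, with median log2 ratios of 2.75, 2.13 and 1.67, against 8.23%, 6.85% and 20.2% of all genes. DDIT3, which encodes CHOP, was at 4.40 RPKM in Suff, 101 in Arg-, 110 in Leu- and 26.5 in Met-. TRIB3, a CHOP target and pseudokinase, was at 9.35, 162, 125 and 27.2 RPKM, and PPP1R15A, which directs dephosphorylation of eIF2, at 3.15, 31.3, 17.2 and 21.6. DDIT3 and TRIB3 were thus lower in Met- than in Arg- and Leu-, as was TNFRSF10B. As point values ATF4, ATF3, CEBPB and SESN2 of the axis were lower in Met- too. DDIT4 and ATF5 were instead highest in Met-, and PPP1R15A in Met- lay between Leu- and Arg-. BBC3 in Met- was lower than in Leu- and did not differ beyond counting error from Arg-, and PMAIP1 in Met- was lower than in Arg- and did not differ beyond counting error from Leu-. With cycloheximide 5 of 6, 6 of 6 and 4 of 4 genes of the axis were at least 2-fold higher, with medians of 2.20, 2.18 and 2.94, against 16.6%, 12.1% and 46.7% of all genes, and the last count comes from the library with the listing limit.

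The p53 list showed no shared direction. Of 11, 11 and 13 genes compared, 1, 2 and 3 were at least 2-fold higher and 1, 1 and 2 lower, against 8.23%, 6.85% and 20.2% of all genes higher and 5.95%, 2.06% and 5.34% lower, with medians of 0.15, 0.43 and 0.43. GADD45A, which is also a target of ATF4, was at 52.4 RPKM in Suff, 253 in Arg-, 205 in Leu- and 83.2 in Met-, while BTG2, an antiproliferative p53 target, was at 47.4, 19.5, 21.0 and 11.3. TP53INP1, a p53 cofactor, was at 3.52, 10.3, 14.8 and 19.1 RPKM, and reached the minimum mean of 10 RPKM in Met- alone.

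Among 13 other BCL2 family genes, 3 or 4 entered each comparison. BMF, a BH3-only gene, was at 2.87 RPKM in Suff, 15.7 in Arg-, 15.6 in Leu- and 20.7 in Met-. It reached the minimum mean of 10 RPKM in Met- alone. There it was the only gene of this list past 2-fold, against 20.2% of all genes higher. BCL2L11, which encodes the BH3-only protein BIM, was at 15.5, 13.5, 24.6 and 23.1 RPKM, and BNIP3, a mitophagy receptor, at 84.5, 48.6, 58.2 and 54.1. The list medians were -0.18, 0.51 and 0.64.

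Downstream of the members, the caspase and apoptosome list held 8, 8 and 9 genes compared, with medians of -0.51, -0.03 and 0.04. At least 2-fold higher were 0, 0 and 1, against 8.23%, 6.85% and 20.2% of all genes. At least 2-fold lower were 2, 0 and 1, against 5.95%, 2.06% and 5.34%. CYCS, the cytochrome c released by BAX and BAK1, was at 1915 RPKM in Suff, 646 in Arg-, 1017 in Leu- and 678 in Met-. CASP8, the caspase recruited by DR5, was at 4.92, 14.2, 10.7 and 15.2 RPKM. It reached the minimum mean of 10 RPKM in Met- alone, where it was the 1 higher gene of the list. Of 5 mitochondrial pore and release genes, 2, 2 and 1 were at least 2-fold lower, against 5.95%, 2.06% and 5.34% of all genes. None was higher, against 8.23%, 6.85% and 20.2%, and the medians were -0.80, -0.61 and -0.69. VDAC1, an outer membrane channel, was at 625 RPKM in Suff, 223 in Arg-, 310 in Leu- and 204 in Met-. With cycloheximide VDAC1 did not share that direction, at log2 ratios of 0.11 in Arg- and 0.25 in Leu-. CYCS was at log2 ratios of -0.17 in Arg- and -0.73 in Leu- with the drug, against -1.57 and -0.91 without it.

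Of the death receptors and adaptors 4, 4 and 5 genes were compared, with medians of 0.28, 0.33 and 0.16. At least 2-fold higher were 0, 1 and 1 of them, against 8.23%, 6.85% and 20.2% of all genes. CFLAR, which encodes the caspase-8 inhibitor c-FLIP, was at 5.74 RPKM in Suff, 8.60 in Arg-, 16.2 in Leu- and 12.2 in Met-. It reached the minimum mean of 10 RPKM in Leu- alone. Of the inhibitors of apoptosis and their antagonists 5 genes were compared in each starvation, with medians of -0.09, 0.30 and 0.57. None passed 2-fold in either direction, against the same shares of all genes higher and 5.95%, 2.06% and 5.34% lower. DIABLO, which neutralises these inhibitors, was at 41.6, 76.7, 52.0 and 74.6 RPKM, and BIRC5, which encodes survivin, at 420, 292, 327 and 327. Of the genes that set MCL1 protein turnover 3 were compared. USP9X, the deubiquitinase that stabilises MCL1, was at 15.03 RPKM in Suff, 32.4 in Arg-, 25.6 in Leu- and 47.1 in Met-. It was at least 2-fold higher in Arg- and Met-, against 8.23% and 20.2% of all genes.

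**Figure D4:**
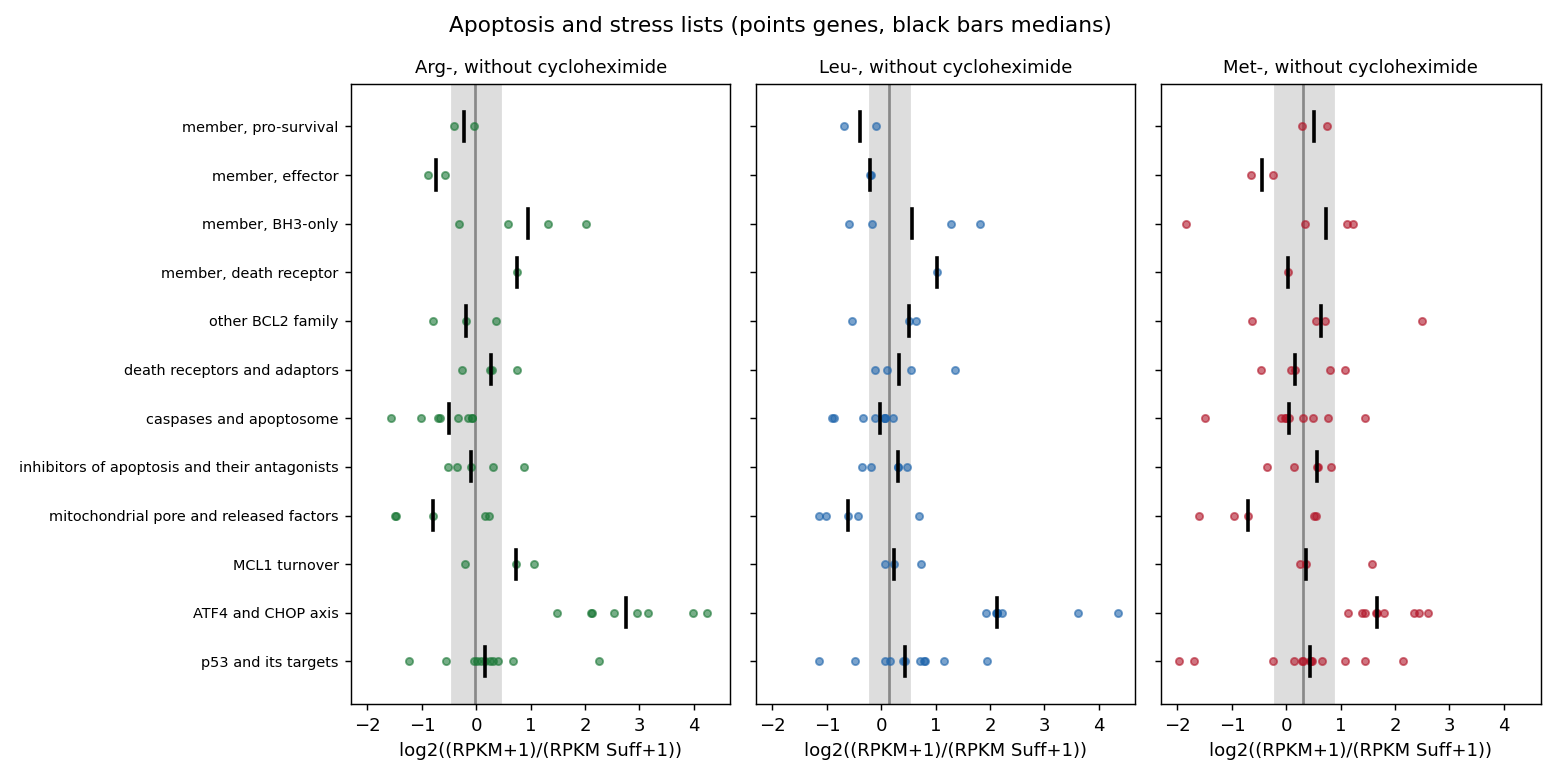
Log2 ratio to Suff without cycloheximide, as log2((RPKM + 1)/(RPKM Suff + 1)), for the members by role and for the wider lists; points are genes listed in both libraries with a mean RPKM of at least 10, black bars are list medians, the grey line is the median of all genes compared and the grey band holds the middle 50%. Every gene of the ATF4 and CHOP axis lies right of the band in the 3 starvations, whereas the BH3-only members lie on both sides of the median line.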

How the data were processed

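Ribosome-protected fragments of HEK293T cells were sequenced, 1 library for each of 4 media with and without cycloheximide, 8 in all. Per the submitters' notes and the study's methods, adaptors were trimmed, reads were selected by length and quality, and uniquely mapped reads were placed by Bowtie on GRCh38 transcripts with no mismatch allowed. The release of the annotation was not given in the sources used here. The authors deposited RPKM per Ensembl transcript, with nothing pooled. The file names of the series without cycloheximide point to duplicate removal, a step the methods do not state.

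Transcripts were matched to GENCODE release 44 (96.7% to 97.1% per library), and the highest transcript per gene and library was kept. Reads were recovered as RPKM times coding length, without the stop codon in the series with cycloheximide and with it in the other, times library size. Between 97.1% and 97.3% of matched transcripts fell within 0.01 of a whole read. The recovery and the intervals were tested on simulated data. RPKM intervals are exact Poisson and ratio intervals exact binomial (Clopper-Pearson), at 95%. No mean, SD or p-value can be had from 1 library per condition. A bound for an unlisted gene takes the fewest reads listed in that library as its upper limit. The log2 scale with a pseudocount of 1 understates ratios of genes with low values.

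The members and lists were chosen with earlier results of these data known. Genes named beside the members were, per list, up to 3 with the largest absolute median of the 3 log2 ratios without cycloheximide, among genes listed in those 4 libraries at a mean of at least 10 RPKM, and the 3 nearest in pattern to MCL1, BBC3, PMAIP1 and TNFRSF10B. RIPK1, TNFRSF1A, DFFB, XIAP, VDAC2, VDAC3, HUWE1 and BTRC met this rule and are not described singly. TNFRSF10D, and the genes of the ATF4 and CHOP axis other than DDIT3, TRIB3 and PPP1R15A, are named without meeting it. Alternatives were a pseudocount of 0.1, a minimum of 50 RPKM, unlisted genes at 0, the same transcript in both libraries, summed transcripts and ratios centred on the median of all genes. BH3 segments were read from GENCODE transcripts and placed on GRCh38. Python 3.11.15, pandas 2.3.3, scipy 1.17.1, Biopython 1.88 and matplotlib 3.10.9 were used.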

Additional observations from a re-analysis of the deposited data

Results flagged for a closer look

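BAD in arginine-deficient medium stood on opposite sides of its sufficient library in the series, at 0.503-fold with cycloheximide and 1.501-fold without. Each ratio compares 1 library with 1 library, and the difference between them was not tested. Cycloheximide, the fewest reads listed and, judging by file names alone, duplicate removal differed between the series and cannot be told apart, while the BAD transcript was the same in both.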

How the results depend on the processing

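No paired analysis was possible because each condition had 1 library. Of 45 member log2 ratios, 2 changed sign under the 4 alternatives that apply to single genes, both on centring in Met- without cycloheximide, MCL1 from 0.28 to -0.03 and TNFRSF10B from 0.03 to -0.29. A pseudocount of 0.1 or a fixed transcript left all 45 inside their counting intervals, summed transcripts left 44, and centring on the median of all genes left 38. Counts over few members moved more. The number at least 2-fold higher went from 2 to 1 in Arg-, 3 to 1 in Leu- and 2 to 1 in Met- without cycloheximide, and from 1 to 0 in Leu- with it, at a minimum mean of 50 RPKM. Centring moved it from 3 to 2 in Leu- and from 2 to 0 in Met- without cycloheximide, and from 3 to 1 in Met- with it. With unlisted genes at 0 it went from 1 to 2 in both Arg- and Leu- with cycloheximide. The number 2-fold lower with cycloheximide went in Arg- from 2 to 0 on centring and to 3 with unlisted genes at 0. It went from 1 to 0 in Leu- at the higher minimum, and from 0 to 5 in Met- with unlisted genes at 0. An unlisted gene set to 0 can only be lower, so those 5 follow from the listing limit. BCL2L1, BAK1, BID and BAD could have been above their Suff values there and still unlisted. The median log2 ratio of pro-death minus pro-survival genes turned from -1.20 to 1.70 in Arg- with cycloheximide, where BCL2L1 and BBC3 entered at 0, and from 0.80 to -0.29 in Arg- without it at the higher minimum, which leaves out BBC3, TNFRSF10B and BCL2L1, and from 0.23 to -0.09 in Leu- without it at that minimum. With cycloheximide it went from -0.52 to -1.55 in Leu- at that minimum and from -0.16 to -4.97 in Met- with unlisted genes at 0. The change in Met- follows from the listing limit too. The read numbers limit BCL2, BCL2L1, BBC3 and every member in Met- with cycloheximide.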
